A study of Mus musculus with 6 samples.

Results

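miR-142a is the microRNA pair cut from the mouse Mir142 hairpin, and its members here are the arms miR-142a-3p and miR-142a-5p, taken by name as 2 of the 1960 mature miRNAs in the deposited table. Both arms passed the filter on low counts, which kept 297 miRNAs. The 6 libraries were made from immune cells isolated from the livers of wildtype female C57BL/6J mice aged 10 weeks, with 2 libraries in each of 3 groups. ConA+D8THC mice were injected with the plant lectin concanavalin A (ConA), whose action on T cells leads to hepatitis, through the retro-orbital sinus at 12.5 mg/kg. They also received intraperitoneal delta-8-tetrahydrocannabinol (D8THC), which belongs to the cannabinoids, in doses of 20 mg/kg (100 µL each), one 15 to 18 h ahead of ConA and the other 30 min later than it. ConA+Vehicle mice were given the same dose of ConA with the solvent, DMSO in corn oil. Vehicle mice were given this solvent without ConA and are labelled as free of disease. The labels call the libraries of a group biological replicates and do not give the number of mice behind each, nor the hour at which livers were taken.

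miR-142 is transcribed in nearly all cells of the blood lineages and very little in other cell types, so it is widely used as a marker of haematopoietic cells and its target sites are built into gene therapy vectors to silence them in such cells. Mice that lack it have defects of lymphocytes, dendritic cells and platelets. The hairpin is unusual in that both of its arms are loaded into Argonaute in quantity, and each arm represses its own set of messenger RNAs through its own seed.

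The hairpin lies on the plus strand at chr11:87756864-87756927 (RefSeq, build GRCm38.p6, the assembly behind the mm10 build that the labels name). In GENCODE M21 it falls inside the noncoding host gene Mir142hg (chr11:87755577-87757270), in the intron between the exons at chr11:87755577-87755613 and chr11:87757039-87757270. The hairpin is shown because both members are read from it, with the 5p arm first and the 3p arm second, each in capitals.
Mir142 hairpin: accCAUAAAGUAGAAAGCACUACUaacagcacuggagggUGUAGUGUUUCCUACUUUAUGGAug
The arms are given again alone, 5′ to 3′, with the seed (bases 2 to 8) in capitals, together with miR-142b, which is annotated on the opposite strand of the same locus (chr11:87756906-87756925, minus strand).
miR-142a-3p: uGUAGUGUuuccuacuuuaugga
miR-142a-5p: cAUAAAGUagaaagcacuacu
miR-142b: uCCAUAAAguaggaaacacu
Among the 1679 mature mouse miRNAs in the RefSeq table, 0 others shared the seed of miR-142a-3p and 0 shared that of miR-142a-5p. The 20 bases of miR-142b are the exact reverse complement of part of miR-142a-3p, and 16 of the 18 bases over which it overlaps miR-142a-5p in the same direction are identical, with 2 different. miR-142b was counted 1 and 2 times in the ConA+D8THC libraries, 0 times in both ConA+Vehicle libraries, and 0 and 1 times in the Vehicle libraries, against at least 6306 counts of either miR-142a arm in every library. The locus was thus read almost entirely as the plus-strand miR-142a.

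The libraries held 322764 to 1172389 counts in all, with the lowest totals in ConA+Vehicle. The labelled cell type was checked against marker miRNAs. Immune-cell miRNAs were present in every library, but so were those of other liver cells: hepatocyte miRNAs made up 5.18% to 7.15% of counts in ConA+D8THC, 17.1% to 19.7% in ConA+Vehicle and 8.35% to 13.9% in Vehicle, and the endothelial pair miR-126a-3p and miR-126a-5p made up 20.7% to 26.7%, 12.8% to 13.2% and 32.7% to 34.2% in the same groups. All 6 hepatocyte and both endothelial markers had counts in every library. Since these are bulk samples, a lower value of a miRNA may come from fewer cells of a type or from less RNA per cell. Values are relative to a library's counts, so a value may also be lower where other cells give more RNA. These cannot be told apart. The part of hepatocyte and endothelial RNA in the values of miR-142a was not tested. The differences of miR-142a were also computed with the library scaling taken without the hepatocyte and endothelial markers. This leaves the other RNA of these cells in the libraries and so does not test that part.

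miR-142a was among the most abundant miRNAs of every library. Its arms together took 11.2% and 7.72% of all counts in the first and second library of ConA+D8THC, 10.3% and 9.03% in those of ConA+Vehicle, and 7.31% and 2.53% in those of Vehicle. With so many counts the exact binomial 95% intervals were narrow, for example 2.50% to 2.56% in Vehicle replicate 2, and they cover counting error only. The lowest library was Vehicle replicate 2, which had 2.92 times fewer scaled counts of the arms together than Vehicle replicate 1, whereas the ConA+Vehicle libraries differed by a factor of 1.01 and the ConA+D8THC libraries by 1.39.

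miR-142a-3p, the more abundant arm, was at 81767 and 59577 CPM (counts per 1e6 counts of tested miRNAs, with library sizes scaled by TMM, the trimmed mean of M-values) in ConA+D8THC libraries 1 and 2, against 75625 and 74591 CPM in those of ConA+Vehicle and 63824 and 20468 CPM in those of Vehicle. The 2 ConA+Vehicle libraries lay above both Vehicle libraries, but Vehicle replicate 1 lay above ConA+D8THC replicate 2, so that only the first of these comparisons was free of overlap. By raw count it had rank 4 or 5 among the miRNAs of 5 libraries and rank 9 in Vehicle replicate 2. miR-142a-5p was at 23616 and 16320 CPM in ConA+D8THC libraries 1 and 2, against 22115 and 21853 CPM in those of ConA+Vehicle and 12175 and 5528 CPM in those of Vehicle. For this arm all 4 libraries of ConA-treated mice lay above both Vehicle libraries, and the ConA+D8THC and ConA+Vehicle libraries overlapped.

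**Figure D1:**
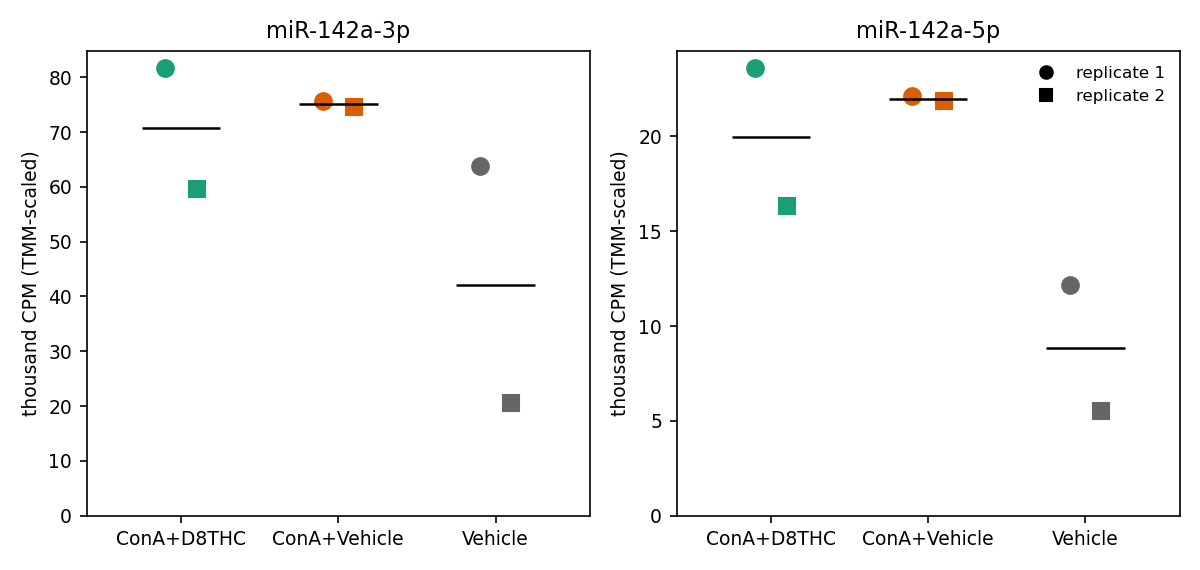
Level of each miR-142a arm in 1000 CPM (vertical axes, starting at 0) in the 2 libraries of each group; the bars are group means. The squares of Vehicle replicate 2 are the lowest in both panels, at 20468 CPM for miR-142a-3p and 5528 CPM for miR-142a-5p.

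ConA+Vehicle was set against Vehicle to ask how miR-142a differs in liver immune cells during ConA hepatitis. miR-142a-5p rose, averaging 21984 ± 185 CPM in ConA+Vehicle and 8852 ± 4700 CPM in Vehicle (SD, n = 2 each), a log2 fold change of 1.31 ± 0.36 (SE; 95% interval 0.50 to 2.13; adjusted p = 0.0188, edgeR's quasi-likelihood test). In the same test 19.9% of the 297 miRNAs were called higher, at an adjusted p under 0.05, and 16.8% lower, so a rise was common among miRNAs. miR-142a-3p averaged 75108 ± 731 CPM in ConA+Vehicle and 42146 ± 30658 CPM in Vehicle, a log2 fold change of 0.83 ± 0.48 that was not called (95% interval -0.30 to 1.97; adjusted p = 0.222 by edgeR). Its groups did not overlap, which was true of 67.3% of the miRNAs tested in either direction and of 38% with ConA+Vehicle higher. The median log2 fold change over all tested miRNAs was 0.10.

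Both values depended on which Vehicle library was kept. A fit with 1 library left out leaves the other library of its group alone, and its spread is then taken from the other groups on the assumption that it varies like them. Without Vehicle replicate 1 the log2 fold changes were 1.88 for miR-142a-3p, which was then called higher (adjusted p = 6.93e-05 by edgeR), and 1.99 for miR-142a-5p; without Vehicle replicate 2 they were 0.23 and 0.85, and only miR-142a-5p was called. Leaving out ConA+Vehicle replicate 1 ended the call of miR-142a-5p at nearly the same log2 fold change, 1.30 (adjusted p = 0.0554 by edgeR, the highest of its alternatives, the lowest being 3.07e-05). miR-142a-3p was also called higher with no filter on low counts (adjusted p = 0.0333) and without ConA+D8THC replicate 2 (adjusted p = 0.0462), a library of the group outside this comparison, in alternatives whose adjusted p ran from 6.93e-05 to 0.573. With library scaling taken without hepatocyte and endothelial miRNAs the log2 fold changes were 0.86 for miR-142a-3p, not called, and 1.33 for miR-142a-5p, called (adjusted p = 0.164 and 0.00899 by edgeR).

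ConA+D8THC was then set against the same Vehicle libraries, so the values that follow are not independent of those above. miR-142a-5p was again called higher, averaging 19968 ± 5159 CPM in ConA+D8THC and 8852 ± 4700 CPM in Vehicle (SD, n = 2 each), with a log2 fold change of 1.17 ± 0.36 (SE; 95% interval 0.36 to 1.99; adjusted p = 0.0354 by edgeR); 18.5% of tested miRNAs were called higher and 14.1% lower. miR-142a-3p averaged 70672 ± 15691 CPM in ConA+D8THC and 42146 ± 30658 CPM in Vehicle and was not called, at a log2 fold change of 0.75 ± 0.48 (95% interval -0.38 to 1.88; adjusted p = 0.252 by edgeR). The groups did not overlap for miR-142a-5p, as for 74.7% of tested miRNAs (37.7% with ConA+D8THC higher), and overlapped for miR-142a-3p. Single libraries changed the call of both arms. The call of miR-142a-5p ended without ConA+D8THC replicate 1 (adjusted p = 0.0904 by edgeR, log2 0.88) or Vehicle replicate 2 (adjusted p = 0.0638, log2 0.71), in a range of 1.19e-05 to 0.0904, and its log2 fold change was 1.62 without ConA+D8THC replicate 2 and 1.85 without Vehicle replicate 1. miR-142a-3p was called higher without Vehicle replicate 1 (log2 1.79, adjusted p = 0.000128) or ConA+D8THC replicate 2 (log2 1.16, adjusted p = 0.0177), and its log2 fold change fell to 0.15 when Vehicle replicate 2 was left out, with alternatives from 0.000128 to 0.695 in adjusted p. It was also called with no filter on low counts (adjusted p = 0.0473). With the scaling taken without hepatocyte and endothelial miRNAs miR-142a-3p was at a log2 fold change of 0.78 (adjusted p = 0.197 by edgeR) and miR-142a-5p was called higher (2.29-fold, adjusted p = 0.0194).

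ConA+D8THC was set against ConA+Vehicle to ask whether D8THC changed miR-142a in mice given ConA. A difference was not found in either arm. miR-142a-3p averaged 70672 ± 15691 CPM in ConA+D8THC and 75108 ± 731 CPM in ConA+Vehicle, a log2 fold change of -0.09 ± 0.48 (SE; adjusted p = 0.969 by edgeR), and miR-142a-5p averaged 19968 ± 5159 and 21984 ± 185 CPM in ConA+D8THC and ConA+Vehicle, at -0.14 ± 0.35 (adjusted p = 0.909 by edgeR). In this comparison 3.7% of the 297 miRNAs were called, and 46.8% had groups that did not overlap, unlike either arm. The 95% intervals, from -1.21 to 1.04 for miR-142a-3p and from -0.94 to 0.66 for miR-142a-5p, leave room for changes of either sign. The ConA+D8THC replicates lay on either side of the ConA+Vehicle pair for both arms, so that the sign depended on the library: without ConA+D8THC replicate 2 the log2 fold changes were 0.34 and 0.32, and without ConA+D8THC replicate 1 they were -0.33 and -0.43, for the 3p and the 5p arm in that order.

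**Figure D2:**
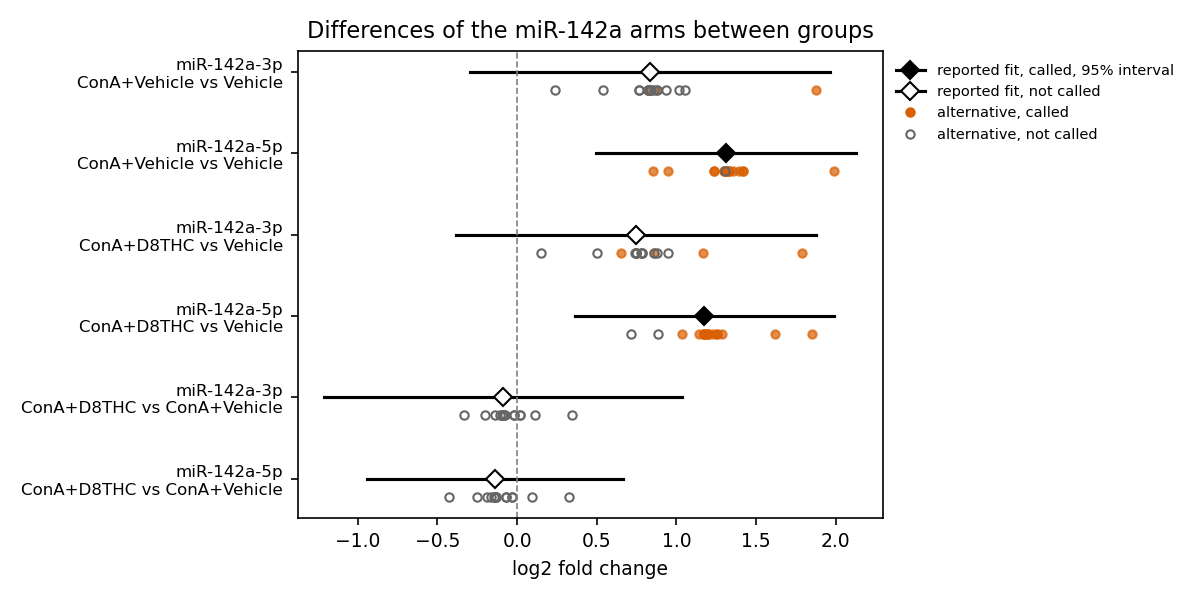
Log2 fold change (horizontal axis) of each arm in the 3 comparisons; diamonds with lines are the reported fit and its 95% interval, filled where called at an adjusted p under 0.05, and circles are the alternative settings, filled where called. miR-142a-5p is called in both comparisons with Vehicle (1.31 and 1.17), and in ConA+D8THC vs ConA+Vehicle the circles of both arms lie on either side of 0.

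The balance of the arms was compared next, since a ratio of 2 miRNAs within a library does not depend on how the library is scaled. The 5p arm made up 22.4% and 21.5% of miR-142a counts in the libraries of ConA+D8THC, 22.6% and 22.7% in those of ConA+Vehicle, and 16.0% and 21.3% in those of Vehicle. Vehicle replicate 1 lay below the narrow band of the other 5 libraries, with an exact binomial 95% interval of 15.7% to 16.3% that did not reach the 20.8% to 21.7% of Vehicle replicate 2. The library with the least 5p arm in its pair was therefore not the Vehicle library with the least miR-142a.

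Over the 66 hairpins with both arms tested, limma on the log2 ratio of 5p to 3p counts did not call the ratio of miR-142a in any of the 3 comparisons. Its difference in log2 ratio was 0.37 ± 0.26 for ConA+Vehicle against Vehicle (SE; 95% interval -0.23 to 0.96; limma adjusted p = 0.294), where 19.7% of hairpins were called. It was 0.31 ± 0.26 for ConA+D8THC against Vehicle (95% interval -0.29 to 0.91; limma adjusted p = 0.422), where 16.7% were called. For ConA+D8THC against ConA+Vehicle it was -0.06 ± 0.26 (95% interval -0.65 to 0.54; limma adjusted p = 0.896), with 0% of hairpins called and 7 of 66 at an unadjusted p under 0.05. That miR-142a-5p passed the threshold against Vehicle and miR-142a-3p did not is therefore not shown to be a difference between the arms. Without Vehicle replicate 2, on the same assumption, the ratio was called higher in ConA+Vehicle (log2 difference 0.62, limma adjusted p = 0.0230, the lowest of alternatives reaching 0.522) and in ConA+D8THC (0.56, adjusted p = 0.0254, the lowest of alternatives reaching 0.770). Without Vehicle replicate 1 the differences were 0.12 and 0.06.

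**Figure D3:**
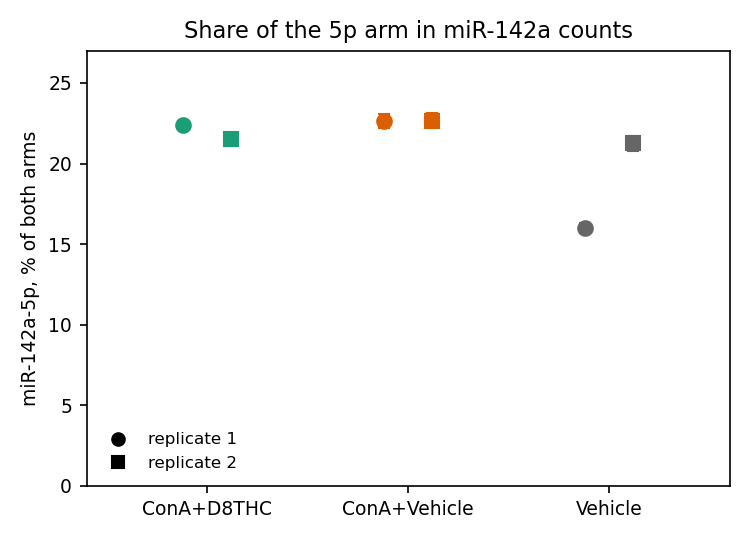
Share of the 5p arm in the counts of both miR-142a arms (vertical axis, percent, starting at 0) in each library, with exact binomial 95% intervals that are mostly smaller than the symbols. Vehicle replicate 1 stands at 16.0%, and the other 5 libraries between 21.3% and 22.7%.

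Because the Vehicle libraries differed so much in miR-142a, they were compared over all tested miRNAs. Vehicle replicate 2 was lower than replicate 1 by 1.64 on the log2 scale for miR-142a-3p, rank 4 of 297 by absolute difference, and by 1.14 for miR-142a-5p, against a median absolute difference of 0.36. Other immune-cell miRNAs differed to varying degrees: replicate 2 minus replicate 1 was -1.30 for the inducible miR-21a-5p, 0.06 for the neutrophil and myeloid miR-223-3p, -0.14 for the lymphoid miR-342-3p and -0.67 for the lymphoid miR-150-5p. Among the 147 miRNAs with a mean of at least 100 CPM over the 6 libraries, the 5 that differed most besides the miR-142a arms, named after their values were seen, were miR-32-5p, miR-144-5p, miR-6240, miR-19a-3p and miR-21a-5p. Of these, miR-6240 was higher in replicate 2 (16.7 CPM, against 4.14 CPM in replicate 1), and the others were lower in it by 1.30 to 1.88 on the log2 scale.

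The 4 miRNAs named last as lower in Vehicle replicate 2 were poor in G and C, unlike miR-342-3p (52.2% GC), which was lower by less. These 4 have a GC content of 30.4% to 36.4%, miR-142a-3p has 34.8% and miR-142a-5p 33.3%, whereas the median was 45.5% over the 250 tested miRNAs that had a RefSeq sequence (84.2% of 297). Among less abundant miRNAs some with more G and C were as low, such as miR-18b-5p (43.5% GC, -1.51 on the log2 scale) and miR-6538 (94.7% GC, -1.28), named after their values were seen. Some abundant miRNAs poor in G and C were little changed or higher in Vehicle replicate 2. They included let-7f-5p (31.8% GC, -0.11), let-7a-5p (36.4% GC, 0.12) and miR-200b-3p (36.4% GC, 0.40), also named after their values were seen. Only 8.8% of the 250 had a lower GC content than miR-142a-3p. In the 46 miRNAs with up to 37% GC, the median difference of Vehicle replicate 2 minus replicate 1 was -0.50 on the log2 scale and 38 were below 0. It was -0.13 for the 62 from 37% to 45%, 0.02 for the 94 from 45% to 55% and 0.17 for the 48 above 55%, so that the median difference followed the order of GC content. GC content was looked at after the data had been seen. The miR-142a arms and the other miRNAs named above are part of these values, which are therefore a description and no separate support. Across the 250 miRNAs Pearson's r between GC content and the difference was 0.31 and Spearman's rho 0.37, and across the 129 with at least 100 CPM they were 0.48 and 0.42; the points share the same 2 libraries and are not replicates. Across the same 129 miRNAs r was 0.14 (rho -0.04) between the ConA+D8THC libraries and 0.06 (rho -0.06) between the ConA+Vehicle libraries.

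The part of GC content in the miR-142a values was not measured. After the data had been seen, 1 alternative was added. It took out each library's trend of level with GC content before the edgeR test on the 250 miRNAs. This also takes out group differences that run with GC content and can narrow the Vehicle spread, so its adjusted p are no separate support. In this alternative miR-142a-5p was called higher against Vehicle both in ConA+Vehicle (log2 0.95, adjusted p = 0.000389) and in ConA+D8THC (log2 1.04, adjusted p = 0.000133). miR-142a-3p was at log2 0.54 in ConA+Vehicle against Vehicle (adjusted p = 0.0805 by edgeR) and was called higher in ConA+D8THC against Vehicle (log2 0.65, adjusted p = 0.0328). The part of GC content in the difference between the Vehicle libraries was not tested.

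**Figure D4:**
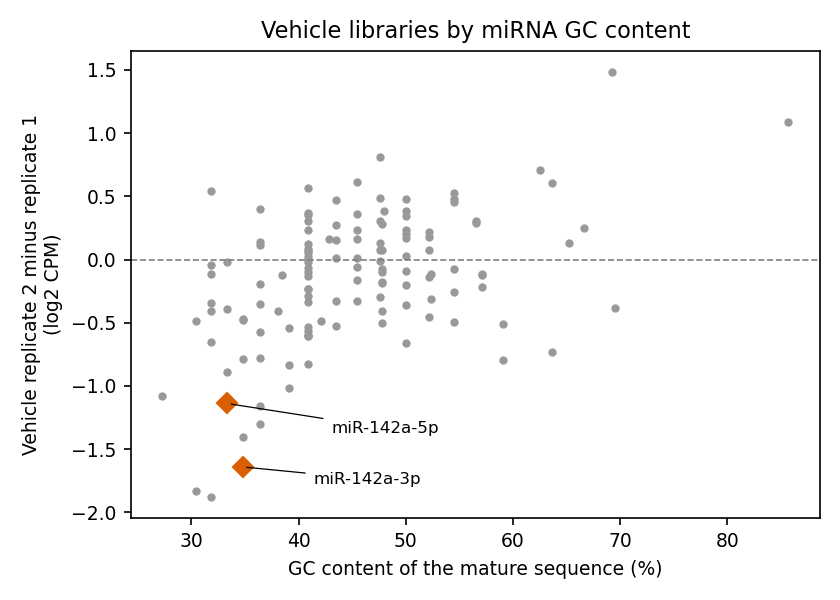
Difference of Vehicle replicate 2 minus replicate 1 in log2 CPM (vertical axis) against the GC content of the mature sequence (horizontal axis, percent) for 129 miRNAs with at least 100 CPM and a RefSeq sequence; the miR-142a arms are the labelled diamonds. Both arms lie at the low-GC end and below most other points, at -1.64 and -1.14.

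Other miRNAs of blood-derived cells were read against miR-142a as counts per 1000 counts of both its arms. miR-223-3p, an abundant miRNA of neutrophils and other myeloid cells, stood at 193 and 189 in the libraries of ConA+D8THC, 267 and 321 in those of ConA+Vehicle and 45.2 and 138 in those of Vehicle. miR-155-5p, induced when lymphocytes and macrophages are activated, stood at 69.1 and 71.9 in ConA+D8THC, 93.4 and 88.0 in ConA+Vehicle and 19.9 and 42.0 in Vehicle. For both miRNAs every library of ConA-treated mice lay above both Vehicle libraries, which held for 7.46% of the 295 tested miRNAs apart from the miR-142a arms. The ConA+D8THC replicates lay below the ConA+Vehicle replicates, which held for 19.7%, with 25.1% in the opposite order.

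miR-21a-5p, a miRNA induced in many activated cells, was the most abundant of these miRNAs, at 845 and 951 per 1000 in ConA+D8THC, 809 and 888 in ConA+Vehicle and 531 and 631 in Vehicle. It too was higher in every library of ConA-treated mice than in both Vehicle libraries. Its relation to miR-142a was steady between the Vehicle replicates, unlike that of miR-146a-5p, a feedback brake on NF-kappaB signalling, which was at 191 and 216 in ConA+D8THC, 138 and 178 in ConA+Vehicle and 325 and 776 in Vehicle. miR-150-5p, a miRNA of mature lymphocytes, was at 61.0 and 53.2 in ConA+D8THC, 87.4 and 70.5 in ConA+Vehicle and 88.1 and 161 in Vehicle. On this ratio 44.1% of the 295 miRNAs were lower in all ConA-treated libraries than in either Vehicle library, so the low values of miR-146a-5p, miR-150-5p, miR-125a-5p and let-7e-5p were of a common kind. miR-125a-5p was at 17.8 and 27.6 in ConA+D8THC, 14.1 and 13.3 in ConA+Vehicle and 41.6 and 155 in Vehicle. With 2 libraries against 2 an exact permutation test cannot reach a p of 0.05, so these ratios are given without a test, and Vehicle replicate 2, with its low miR-142a, has the higher ratio of the Vehicle pair for each miRNA named here.

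**Figure D5:**
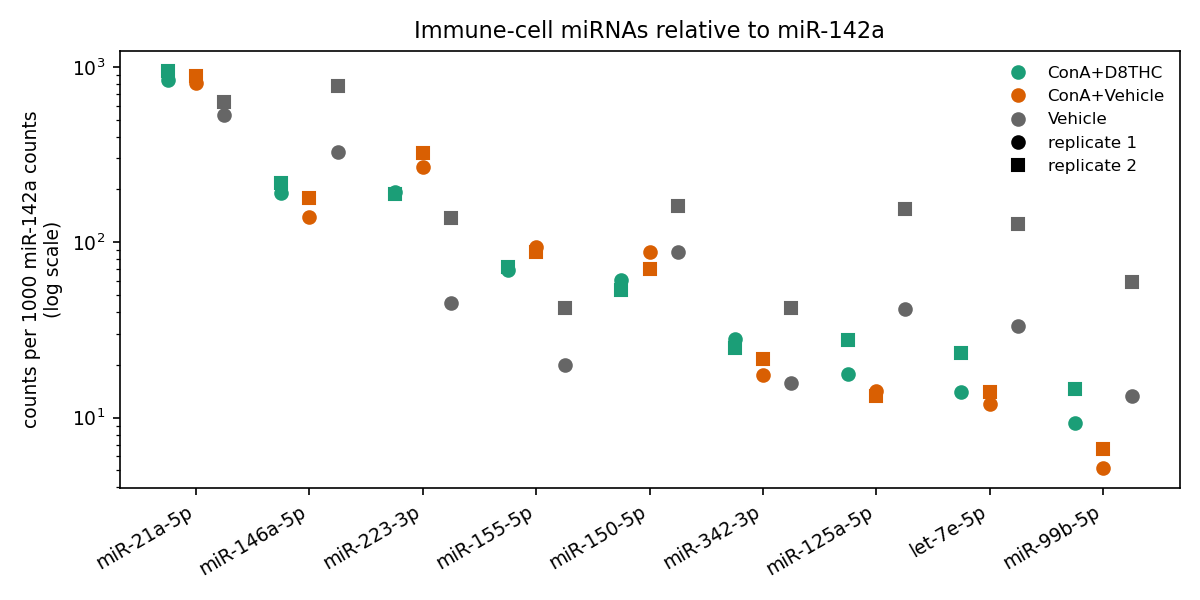
Counts of 9 immune-cell miRNAs per 1000 counts of both miR-142a arms (vertical axis, log scale) in each library, coloured by group. miR-21a-5p, miR-223-3p and miR-155-5p are higher in all 4 libraries of ConA-treated mice than in both Vehicle libraries. miR-146a-5p, miR-150-5p, miR-125a-5p and let-7e-5p are lower in them.

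On the scaled counts, the lists of immune-cell miRNAs were counted in the same edgeR test, where the calls over all tested miRNAs came to 19.9% (higher) and 16.8% (lower) for ConA+Vehicle against Vehicle, and to 18.5% (higher) and 14.1% (lower) for ConA+D8THC against Vehicle. Of the 7 myeloid miRNAs, edgeR called 2 higher and 5 lower in ConA+Vehicle against Vehicle (median log2 -1.22). In ConA+D8THC against Vehicle it called 2 higher and 3 lower (median -0.28). The higher ones were the arms of miR-223. The 5 lower in ConA+Vehicle were both miR-511 arms, miR-99b-5p (log2 -1.16), miR-125a-5p (-1.43) and let-7e-5p (-1.22). The endothelial miR-126a-3p was at -1.49 in that comparison. Which cells these miRNAs came from was not tested, so the list is not a measure of myeloid cells alone. DESeq2 and limma-voom each called 6 of the 7 in ConA+Vehicle against Vehicle and 5 in ConA+D8THC against Vehicle. Of the 5 tested miRNAs inducible in immune cells, 4 were called higher in ConA+Vehicle against Vehicle (median 1.93) and 4 in ConA+D8THC against Vehicle (median 2.13), with miR-146a-5p not called by edgeR in either. DESeq2 called all 5 in ConA+Vehicle against Vehicle, miR-146a-5p included, and limma-voom called 4. In that comparison miR-146a-5p ran the other way from the 4 called higher, at a log2 fold change of -0.55 by edgeR. Of the 5 tested lymphocyte miRNAs, 1 was called higher in each of these comparisons (medians 0.10 and -0.06), namely miR-342-3p, while DESeq2 and limma-voom called 0 and 0 in ConA+Vehicle against Vehicle. The medians over all tested miRNAs were 0.10 for ConA+Vehicle against Vehicle and -0.06 for ConA+D8THC against Vehicle. In ConA+D8THC against ConA+Vehicle edgeR called 0 of the 7 myeloid, 0 of the 5 lymphocyte and 0 of the 5 inducible miRNAs. Over all tested miRNAs it called 3.7%. Of the 3 lists in that order, 4, 0 and 0 members had an unadjusted p under 0.05, and DESeq2 called 1, 0 and 0.

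The summed immune lists did not all follow miR-142a in Vehicle replicate 2. Myeloid miRNAs took 2.64% and 1.99% of counts in ConA+D8THC, 3.08% and 3.22% in ConA+Vehicle and 0.993% and 1.23% in Vehicle, so that Vehicle replicate 2 had the higher share of its pair. The make-up of this sum differed between groups. Per 1000 miR-142a counts miR-223-3p stood at 45.2 and 138 in Vehicle, beside 41.6 and 155 for miR-125a-5p. In ConA+Vehicle they stood at 267 and 321, and at 14.1 and 13.3, in that order. Lymphocyte miRNAs took 1.05% and 0.644% in ConA+D8THC, 1.12% and 0.876% in ConA+Vehicle and 0.818% and 0.570% in Vehicle, with Vehicle replicate 2 lower. Erythroid miRNAs, which circulating red cells carry into a liver preparation, took 0.0557% and 0.0439% in ConA+D8THC, 0.180% and 0.0855% in ConA+Vehicle and 0.103% and 0.0434% in Vehicle. Each of the myeloid, lymphocyte and erythroid markers had a count in every library, and of the inducible ones only miR-155-3p was at 0, in both Vehicle libraries.

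The lists of the other cell types were counted in the same way. Over all tested miRNAs edgeR called 0% higher and 3.7% lower in ConA+D8THC against ConA+Vehicle. It called 18.5% higher and 14.1% lower in ConA+D8THC against Vehicle, and 19.9% higher and 16.8% lower in ConA+Vehicle against Vehicle. Of the 6 hepatocyte miRNAs, 4 were called lower in ConA+D8THC against ConA+Vehicle (median log2 -1.69) and 4 in ConA+D8THC against Vehicle (-0.98), while in ConA+Vehicle against Vehicle 4 rose and 1 fell (1.06). Of the 2 endothelial miRNAs, both were called lower by edgeR in ConA+Vehicle against Vehicle (median -1.31) and 0 in the other comparisons (0.76 for ConA+D8THC against ConA+Vehicle and -0.55 for ConA+D8THC against Vehicle), where 2 and 1 had an unadjusted p under 0.05, DESeq2 called 1 and 0, and limma-voom called 0 and 1. Of the 6 stellate cell and fibroblast miRNAs, which took 0.741% to 1.32% of counts, 2 were called lower in ConA+Vehicle and 1 in ConA+D8THC, each against Vehicle, and 0 in ConA+D8THC against ConA+Vehicle (DESeq2 called 1 and limma-voom 0, and 2 had an unadjusted p under 0.05). Of the 4 erythroid and the 5 bile duct miRNAs, the second at 0.357% to 0.509% of counts, edgeR called 0 in any comparison. In ConA+D8THC set against ConA+Vehicle, 4 erythroid and 0 bile duct miRNAs had an unadjusted p under 0.05, and DESeq2 called 1 and 0. In ConA+D8THC set against Vehicle these were 0 and 1, and DESeq2 called 0 and 0. In ConA+Vehicle set against Vehicle they were 1 and 1, and DESeq2 called 1 and 0.

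The miRNAs whose levels ran most like those of each arm were sought by Pearson's r of log2 CPM over the 6 libraries, among 291 miRNAs with a mean of at least 10 CPM. For miR-142a-3p they were miR-30e-5p (r = 0.99), miR-32-5p (0.98), miR-142a-5p (0.95), miR-340-5p (0.95) and miR-181a-1-3p (0.94). Without Vehicle replicate 2 the r of miR-32-5p was 0.58, that of miR-181a-1-3p 0.46, that of miR-340-5p 0.76 and that of miR-142a-5p 0.83, whereas miR-30e-5p kept 0.96. For miR-142a-5p they were miR-340-5p (0.99), miR-21a-5p (0.99), miR-19a-3p (0.99), miR-363-3p (0.99) and miR-106b-3p (0.98), each of which had an r of 0.95 to 0.99 without Vehicle replicate 2. miR-142a-3p had rank 16 among the miRNAs most like its partner arm. These values describe 6 libraries that share their group means, and are given without a p.

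By mean CPM miR-142a-3p had rank 4 in ConA+D8THC, rank 5 in ConA+Vehicle and rank 6 in Vehicle. The miRNA just above it was miR-21a-5p in ConA+D8THC (80591 ± 11901 CPM) and in ConA+Vehicle (82363 ± 4688 CPM), and the tissue-wide let-7f-5p in Vehicle (54999 ± 3006 CPM). Just below it stood the endothelial miR-126a-5p in ConA+D8THC (59334 ± 13144 CPM), let-7f-5p in ConA+Vehicle (50203 ± 10686 CPM) and let-7a-5p in Vehicle (28703 ± 1636 CPM). miR-142a-5p had rank 11 in ConA+D8THC, between miR-29a-3p and miR-26b-5p, rank 11 in ConA+Vehicle, between let-7a-5p and miR-26b-5p, and rank 19 in Vehicle, between miR-30a-5p and miR-30c-5p. In ConA+D8THC and Vehicle the neighbours of both arms lay within the spread (SD) of the arm itself, so that the order there is not resolved. In ConA+Vehicle miR-21a-5p lay above and let-7f-5p below miR-142a-3p by more than the SD of each, while the neighbours of miR-142a-5p lay within their own SD of it.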

How the data were processed

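Small RNA libraries (QIAseq miRNA kit) of liver immune cells were sequenced on a NextSeq 550, per the labels. The deposited values are raw counts per mature miRNA, which the authors made in QIAGEN's GeneGlobe portal with build mm10, per the submitters' design text and processing notes; the sources used here name no aligner or miRNA annotation, and do not say whether molecular identifiers were collapsed. Where the labels do not say that replicates came from separate mice, p-values measure only the spread between libraries.

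The tests were run with edgeR 4.0.16 under R 4.3.3 (filterByExpr, TMM, robust glmQLFit and glmQLFTest, 1 group-means fit over 6 libraries with 3 residual degrees of freedom, Benjamini-Hochberg over the 297 miRNAs kept, with 99.9% of counts). CPM are per 1e6 counts of these miRNAs after TMM; each SE was derived from the fold change and its F statistic. Arm ratios were tested with limma 3.58.1 on log2 ratios with 0.5 added to each count. DESeq2 1.42.0 and limma-voom were alternatives, as were other scalings, no filter, the replicate block and each library left out with the miRNA set kept. Plots used Python 3.11.15 and matplotlib 3.10.9. Tests were checked on simulated data drawn with the same spread between replicates for all miRNAs. Calls with a library that departs from its group as Vehicle replicate 2 does were not checked this way. The members, the lists (pan-haematopoietic, myeloid, lymphocyte, inducible, erythroid, endothelial, hepatocyte, stellate cell, bile duct) and the rule for naming miRNAs (both arms, miR-142b, abundant list members, the 5 miRNAs most like each arm, neighbours in abundance) were chosen with earlier results of these data known.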

Additional observations from a re-analysis of the deposited data

How the results depend on the processing

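The 12 alternatives to the arm ratio and the 17 to each arm's difference kept the direction in both comparisons with Vehicle. In ConA+D8THC against ConA+Vehicle, where no setting called either arm, miR-142a-3p changed sign with RLE size factors (log2 0.0172), in DESeq2 (0.0172) and with GC-adjusted offsets (0.11), and miR-142a-5p with GC-adjusted offsets (0.0909). miR-142a-3p became called against Vehicle with no filter (log2 0.88 in ConA+Vehicle and 0.86 in ConA+D8THC) and, in ConA+D8THC, with GC-adjusted offsets (0.65). The cause of these changes was not tested.

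Leaving out each library in turn gave log2 fold changes of 0.23 to 1.88 (ConA+Vehicle against Vehicle), 0.15 to 1.79 (ConA+D8THC against Vehicle) and -0.33 to 0.34 (ConA+D8THC against ConA+Vehicle) for miR-142a-3p. For miR-142a-5p they were 0.85 to 1.99, 0.71 to 1.85 and -0.43 to 0.32, and for the arm ratio 0.12 to 0.62, 0.0586 to 0.560 and -0.10 to -0.02, in the same order. Counts of called miRNAs ran from 63 to 125, 60 to 107 and 6 to 28 across these fits, against 109, 97 and 11 with all libraries; the lowest came without ConA+Vehicle replicate 1, ConA+D8THC replicate 1 and ConA+Vehicle replicate 1, in that order. The count for ConA+D8THC against Vehicle was 61 without Vehicle replicate 2. That for ConA+D8THC against ConA+Vehicle was 21 and 23 without ConA+D8THC replicate 1 or 2, 7 without ConA+Vehicle replicate 2 and 28 without either Vehicle library.

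The count of 11 in ConA+D8THC against ConA+Vehicle was 44 with the replicate block, 30 with GC-adjusted offsets, 26 at an adjusted p under 0.1, 23 with 2 against 2 libraries, 19 with no filter, 17 in DESeq2 and 17 with upper-quartile factors. The block changed no call of miR-142a (log2 1.02 and 0.88 for miR-142a-3p and 1.42 and 1.23 for miR-142a-5p in ConA+Vehicle and ConA+D8THC against Vehicle). Libraries with the same replicate number share only a number in the labels; their deviations from the group means correlated at 0.07 to 0.24 across miRNAs.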
